A study of Mus musculus with 76 samples.

Results

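Transcription factors of the developing hypothalamus were followed through the RNA and chromatin data of embryonic mouse diencephalon. The group was a named list of 9 genes, Nkx2-1, Nkx2-4, Rax, Otp, Sim1, Six3, Six6, Fezf1 and Nr5a1, among the 56923 genes in the count files. For each gene the reads in all 16 RNA libraries and the peaks of every mark at and near its promoter were read.

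The hypothalamus is the ventral part of the forebrain that governs hormone release, feeding, body temperature and daily rhythm. Homeobox genes such as Six3, Rax and Nkx2-1 lay out its territory in the early neural tube, and later factors then direct the birth of its neuron types. Many genes of this kind carry both the activating mark H3K4me3 and the Polycomb mark H3K27me3 on their promoters during development.

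The samples came from a study of hs754, a conserved enhancer on mouse chromosome 13, in which the human sequence had replaced the mouse one by CRISPR/Cas9 editing of C57BL/6J embryos. Edited founders were backcrossed to C57BL/6J mice, and homozygous embryos of the hs754-humanized line (humanized) were set against homozygous wild type C57BL/6J embryos. Diencephalon was taken at E11.5, with 6 embryos of 1 litter pooled per replicate, and at E17.5, with 3 embryos pooled. RNA-seq had 4 replicates per genotype and stage, and ChIP-seq had 2 replicates of the early and 3 of the late stage for H3K27ac, H3K4me3 and H3K27me3, and 3 at E17.5 only for CTCF. The labels name no other allele, Cre or agent, the study's authors raise that copy number at known variable loci on chromosome 19 may have differed between the genotypes, and each replicate came from a single litter.

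Sequences that the chromatin results turn on are shown first, all on the plus strand of mm39. The Otp upstream sequence (chr13:95011859-95012108) holds the 250 bases before the transcript start of the only factor whose promoter went from no H3K4me3 peak at E11.5 to one in every E17.5 list, and its CpG dinucleotides are in capitals. The other sequences lie in regions acetylated in every wild type E17.5 list and in no E11.5 list (Otp distal, chr13:95009393-95009692; Nkx2-1 distal, chr12:56558830-56559068; Six3 distal, chr17:85842439-85842738; Six6 distal, chr12:72984752-72985035), or at the strongest CTCF region assigned to a factor (Nr5a1 CTCF, chr2:38629537-38629836). Capitals mark a TATAAA in the Otp distal sequence and a match to a 12-base core of the CTCF motif, read on either strand, in the CTCF sequence. No searched motif was found in the Nkx2-1, Six3 and Six6 distal sequences.
Otp upstream: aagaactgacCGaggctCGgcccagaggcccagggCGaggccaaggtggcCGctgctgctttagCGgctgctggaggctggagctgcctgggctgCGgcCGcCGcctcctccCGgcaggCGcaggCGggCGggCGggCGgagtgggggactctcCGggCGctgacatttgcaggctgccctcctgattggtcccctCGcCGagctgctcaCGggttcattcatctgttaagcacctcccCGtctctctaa
Otp distal: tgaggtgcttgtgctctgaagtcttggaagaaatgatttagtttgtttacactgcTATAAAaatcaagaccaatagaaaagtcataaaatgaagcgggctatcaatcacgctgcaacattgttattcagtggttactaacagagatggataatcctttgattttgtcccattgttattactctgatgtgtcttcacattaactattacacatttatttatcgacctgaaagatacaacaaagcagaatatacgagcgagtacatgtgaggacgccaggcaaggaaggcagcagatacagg
Nkx2-1 distal: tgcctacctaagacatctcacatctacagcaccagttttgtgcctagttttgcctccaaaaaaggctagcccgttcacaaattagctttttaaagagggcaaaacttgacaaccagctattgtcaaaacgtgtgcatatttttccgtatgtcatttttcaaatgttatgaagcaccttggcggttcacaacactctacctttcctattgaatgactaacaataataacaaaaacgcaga
Six3 distal: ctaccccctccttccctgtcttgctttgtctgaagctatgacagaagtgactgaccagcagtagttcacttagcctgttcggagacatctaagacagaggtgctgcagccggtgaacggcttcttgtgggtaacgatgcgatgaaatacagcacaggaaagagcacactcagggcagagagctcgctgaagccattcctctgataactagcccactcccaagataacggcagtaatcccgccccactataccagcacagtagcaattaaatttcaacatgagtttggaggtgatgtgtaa
Six6 distal: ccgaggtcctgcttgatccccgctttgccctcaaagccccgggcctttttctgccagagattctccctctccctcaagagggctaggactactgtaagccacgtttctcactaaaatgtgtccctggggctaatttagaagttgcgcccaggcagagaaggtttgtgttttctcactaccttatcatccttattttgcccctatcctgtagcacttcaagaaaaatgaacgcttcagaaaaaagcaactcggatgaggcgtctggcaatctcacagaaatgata
Nr5a1 CTCF: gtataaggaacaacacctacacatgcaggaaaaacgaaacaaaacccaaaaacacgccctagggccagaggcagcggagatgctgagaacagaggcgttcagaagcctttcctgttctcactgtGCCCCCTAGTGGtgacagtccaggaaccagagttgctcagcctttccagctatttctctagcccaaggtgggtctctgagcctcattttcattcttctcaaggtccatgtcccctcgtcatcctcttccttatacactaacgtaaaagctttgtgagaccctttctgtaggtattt

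The RNA libraries held 16414369 to 24272569 reads on genes. Genes that mark the rest of the diencephalon, such as Tcf7l2 and Gbx2, summed to 882.4 to 1760 CPM (counts-per-million, with TMM-normalized library sizes) in the 16 libraries, against 0 to 1.095 CPM for 8 pituitary genes and 1.897 to 9.779 CPM for 7 eye genes. Tcf7l2 alone made up most of the diencephalic sum, with group means of 888 to 1270 CPM, where those of Gbx2 were 12.8 to 32.8 CPM. Telencephalic genes summed to 10.71 to 16.25 CPM in E11.5 libraries, against 57.76 to 98.9 CPM in E17.5 ones. Replicate 1 of the E17.5 wild type group stood apart: a chi-square of its counts per degree of freedom was 211 to 261 against the other replicates of its group, and 7.31 to 59.9 between all other replicate pairs of a group. All RNA is from bulk tissue, in which fewer cells of a type cannot be told apart from less RNA per cell.

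Of the 6 factors with enough reads at both stages, Otp, Six3 and Fezf1 rose from E11.5 to E17.5 in wild type diencephalon, the same 3 and Sim1 rose in humanized diencephalon, and none fell. The wild type rises ran from 1.31 on the log2 scale for Six3 to 2.81 for Fezf1, and Nkx2-1, Nkx2-4 and Sim1 did not pass the test there. Among all 18583 genes tested in wild type, 55.7% were called, 29.0% higher and 26.7% lower, and among 18781 genes tested in humanized diencephalon, 77.7% were called, 38.2% higher and 39.5% lower (edgeR quasi-likelihood test, Benjamini-Hochberg adjusted p under 0.05). Rax had too few reads to be tested in this way. Six6 and Nr5a1 passed the filter on low counts only through their E17.5 libraries, and a gene that passes in this way had to differ, so they are left out of these counts. The median log2 change of the 6 factors was 0.99 in wild type, where the median of all genes was -0.01, and 1.21 in humanized diencephalon, where that of all genes was -0.04. The stages also differed in cell types, since summed neural progenitor markers went from 4000 to 4605 CPM at E11.5 to 524.6 to 800 CPM at E17.5, and neuronal markers from 1022 to 1615 CPM to 3920 to 5086 CPM. The part of these shifts in the changes of the factors was not tested.

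**Figure D1:**
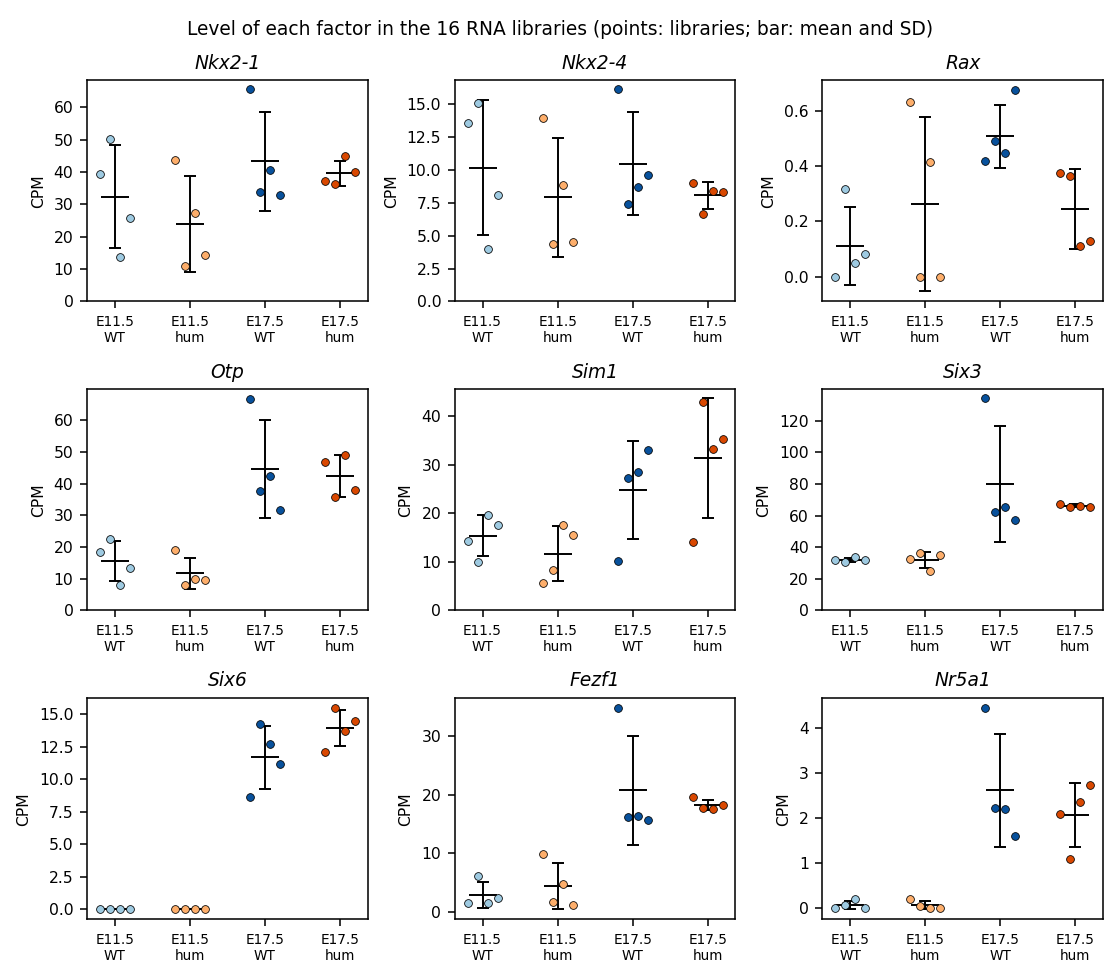
Reads of each factor in the 16 RNA libraries, in CPM on a linear axis that differs between panels. Points are libraries of E11.5 or E17.5 wild type (WT) or humanized (hum) diencephalon, and the bar and whiskers are the group mean and SD (n = 4). Six6 and Nr5a1 lie near 0 in every E11.5 library, and the single high point of Six3 at E17.5 is wild type replicate 1 at 134.4 CPM.

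Six3 and Six6 are paralogues of the sine oculis family, and Six3 acts in the anterior neural plate while Six6 is needed for the eye, the pituitary and the suprachiasmatic nucleus. Six3 (chr17:85920640-85936730, plus strand) was even at E11.5, with 31.74, 30.34, 33.63 and 31.75 CPM in wild type replicates 1 to 4 and 32.56, 36.14, 24.89 and 34.84 CPM in humanized ones. At E17.5 it stood at 134.4, 62.42, 65.18 and 57.28 CPM in wild type and at 67.48, 65.53, 65.84 and 65.49 CPM in humanized diencephalon. Every E17.5 library exceeded every E11.5 library. The rise was 1.31 on the log2 scale in wild type (SE 0.27, adjusted p = 0.00212, edgeR) and 1.03 in humanized diencephalon (SE 0.13, adjusted p = 1.22e-05, edgeR). Without E17.5 wild type replicate 1 the wild type rise was 0.93 (adjusted p = 8.6e-06, edgeR). An antisense gene, Six3os1, overlaps Six3. It averaged 765.2 raw counts of its own strand in E11.5 wild type and 1001.8 in E17.5 wild type libraries, and 856 and 818.2 in humanized ones. These means were not scaled to depth and do not compare the groups. The humanized libraries held 18668436 to 23513110 reads on genes at E11.5 and 16414369 to 19509897 at E17.5.

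Six6 (chr12:72986666-72991673, plus strand) was close to unread at E11.5. Its E11.5 counts were 0, 1, 1 and 0 in wild type and 0, 1, 1 and 0 in humanized libraries, so 2 reads per group of 4. At E17.5 it had 165, 262, 255 and 265 reads in wild type (8.625, 14.24, 12.69 and 11.17 CPM) and 227, 255, 244 and 227 reads in humanized libraries (12.11, 15.47, 13.72 and 14.46 CPM). All 8 late libraries lay far above all 8 early ones. The ratio of the summed libraries, scaled to their totals, was 482 in wild type (95% counting interval 133 to 3990) and 600 in humanized diencephalon (166 to 4960), intervals that cover counting error only. The fitted log2 changes of 8.58 (SE 0.47, adjusted p = 4.77e-07, edgeR) and 8.87 (SE 0.35, adjusted p = 1.22e-09, edgeR) depend on the prior count. Six6 passed the filter only through its E17.5 libraries, so it had to differ and these p-values add nothing to the reads. The gene 4930447C04Rik overlaps Six6 on the other strand. It had 34.2 raw counts of its own strand on average in E11.5 and 222.8 in E17.5 wild type libraries, not scaled to depth. Of the Six6 reads, 99.7% lay on the Six6 strand.

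Rax, a homeobox gene of the eye field and of the hypothalamic floor, was at the edge of detection. It had 0, 6, 1 and 2 reads in E11.5 wild type, 13, 0, 8 and 0 in E11.5 humanized, 8, 9, 9 and 16 in E17.5 wild type and 7, 6, 2 and 2 in E17.5 humanized libraries. The 4 E17.5 wild type libraries lay above all E11.5 wild type libraries and all E17.5 humanized ones. In exact two-sided permutation tests on reads scaled to the total on genes, where 4 against 4 libraries cannot go below p = 0.0286, both of these differences had p = 0.0286 (adjusted over 4 comparisons 0.0571), with means of 0.487 ± 0.123 in E17.5 wild type, 0.117 ± 0.147 in E11.5 wild type and 0.233 ± 0.134 in E17.5 humanized libraries (SD, n = 4). Neither passed the correction. Rax (chr18:66061348-66072858, minus strand) overlaps the antisense gene Raxos1, and counting only the Rax strand gave 207 reads in place of 89. With that strand the stage difference in wild type had p = 0.1429 and the E17.5 genotype difference p = 0.0286 (exact permutation, adjusted 0.1143).

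Nkx2-1 marks the ventral hypothalamus and is needed for its formation, and Nkx2-4 is a close relative expressed in an overlapping domain. Nkx2-1 (chr12:56578742-56583722, minus strand) stood at 39.43, 50.34, 13.81 and 25.95 CPM in E11.5 wild type and at 43.61, 10.94, 27.47 and 14.3 CPM in E11.5 humanized libraries. At E17.5 it stood at 65.6, 33.82, 40.8 and 33.05 CPM in wild type and at 37.24, 36.22, 44.92 and 40.01 CPM in humanized libraries. The stages overlapped in both genotypes. The difference between stages was 0.42 on the log2 scale in wild type (95% interval -0.39 to 1.23, adjusted p = 0.355, edgeR) and 0.71 in humanized diencephalon (-0.01 to 1.44, adjusted p = 0.0681, edgeR). Without E17.5 wild type replicate 1 the wild type value was 0.13 (adjusted p = 0.73). The humanized value passed the threshold under several alternatives: with DESeq2's size factors it was 0.78 (adjusted p = 0.0458), with no filter on low counts 0.65 (adjusted p = 0.00369), and without E11.5 humanized replicate 1 it was 1.14 (adjusted p = 0.00114). Offsets for GC content, described below, gave 0.65 in wild type (adjusted p = 0.0427) and 1.41 in humanized diencephalon (adjusted p = 0.000987).

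Nkx2-4 (chr2:146925236-146927403, minus strand) followed Nkx2-1 at a lower level. It stood at 13.54, 15.06, 3.945 and 8.11 CPM in E11.5 wild type, 13.92, 4.395, 8.848 and 4.508 in E11.5 humanized, 16.15, 7.394, 8.658 and 9.569 in E17.5 wild type and 8.962, 6.613, 8.377 and 8.282 CPM in E17.5 humanized libraries. The early libraries enclosed most of the late ones. Its stage differences of 0.04 (95% interval -0.82 to 0.90, adjusted p = 0.939) in wild type and 0.02 (-0.67 to 0.72, adjusted p = 0.947, edgeR) in humanized diencephalon leave room for a change of close to 1 on the log2 scale in either direction. Without E17.5 wild type replicate 1 the wild type value was -0.27 (adjusted p = 0.498, edgeR).

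Otp and Sim1 are required for the neuroendocrine neurons of the paraventricular and supraoptic nuclei. Otp (chr13:95012109-95021638, plus strand) went from 18.46, 22.38, 7.89 and 13.46 CPM at E11.5 to 66.75, 37.51, 42.24 and 31.57 CPM at E17.5 in wild type. In humanized diencephalon it went from 18.93, 8.117, 9.934 and 9.591 CPM to 46.78, 35.68, 49.08 and 37.97 CPM. The stages did not overlap in either genotype. Otp rose by 1.51 on the log2 scale in wild type (SE 0.33, adjusted p = 0.00279, edgeR) and by 1.85 in humanized diencephalon (SE 0.24, adjusted p = 1.53e-05, edgeR). Per length of exon it became the most abundant of the 9 factors, at 16.8 ± 5.82 RPKM (CPM per kilobase of exon, SD, n = 4) in E17.5 wild type.

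Sim1 (chr10:50770826-50865248, plus strand) stood at 14.41, 9.919, 19.62 and 17.68 CPM in E11.5 wild type and at 5.646, 8.251, 17.54 and 15.49 CPM in E11.5 humanized libraries. At E17.5 it stood at 10.09, 27.4, 28.61 and 33.17 CPM in wild type and at 14.03, 42.9, 33.34 and 35.36 CPM in humanized libraries. In each late group replicate 1 lay within the early range and the other replicates lay above it. Sim1 rose in humanized diencephalon by 1.40 on the log2 scale (SE 0.38, adjusted p = 0.00467, edgeR), and the wild type difference of 0.67 did not pass (95% interval -0.10 to 1.45, adjusted p = 0.126, edgeR). Without E17.5 wild type replicate 1 the wild type difference was 0.93 (adjusted p = 0.000969, edgeR). With GC content offsets neither difference passed, at 0.09 in wild type (adjusted p = 0.552) and 0.36 in humanized diencephalon (adjusted p = 0.206).

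Fezf1, a zinc finger factor of the rostral forebrain and ventromedial hypothalamus, and Nr5a1 (SF-1), the nuclear receptor that defines the ventromedial nucleus, both rose. Fezf1 (chr6:23245041-23250858, minus strand) stood at 1.589, 6.206, 1.568 and 2.474 CPM in E11.5 wild type and at 34.81, 16.15, 16.42 and 15.72 CPM in E17.5 wild type libraries. The humanized libraries stood at 9.832, 1.749, 4.76 and 1.271 CPM and then at 19.58, 17.72, 17.65 and 18.28 CPM. Early libraries of 1 group differed up to 7.74-fold, and no early library reached a late one. The rise was 2.81 in wild type (SE 0.47, adjusted p = 0.000514) and 2.07 in humanized diencephalon (SE 0.47, adjusted p = 0.00145, edgeR).

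Nr5a1 (chr2:38581468-38604642, minus strand) had 0, 1, 4 and 0 reads in E11.5 wild type and 4, 1, 0 and 0 in E11.5 humanized libraries. At E17.5 it had 85, 41, 44 and 38 reads in wild type (4.443, 2.229, 2.189 and 1.602 CPM) and 39, 18, 42 and 43 reads in humanized libraries (2.081, 1.092, 2.361 and 2.739 CPM). It stayed low in absolute terms but was read in every late library. Summed over libraries and scaled to their totals, reads were 42.3 times higher at E17.5 in wild type (95% counting interval 17.9 to 132) and 35.8 times higher in humanized diencephalon (15 to 112). The fitted log2 changes were 5.27 (SE 0.72, adjusted p = 0.000127) and 5.0 (SE 0.62, adjusted p = 1.22e-05, edgeR), and they depend on the prior count. Nr5a1 passed the filter only through its E17.5 libraries, so it had to differ and these p-values add nothing to the reads.

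**Figure D2:**
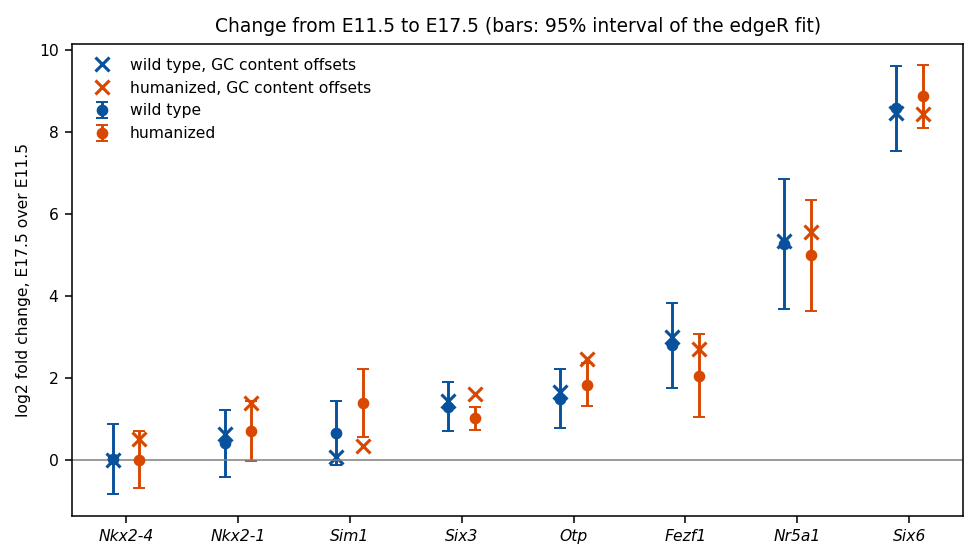
Fitted log2 fold change of E17.5 over E11.5 for the 8 factors tested, in wild type and humanized diencephalon. Circles and bars are the edgeR estimate and its 95% interval, and crosses are the estimate with GC content offsets. Six6 and Nr5a1 have the highest estimates, those of Nkx2-4 lie at 0.04 and 0.02, and the crosses of Sim1 fall to 0.09 and 0.36.

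The order of the factors was compared on RPKM, that is per kilobase of exon. In E11.5 wild type libraries Nkx2-1 came first at 10.7 ± 5.24 RPKM (SD, n = 4), followed by Otp at 5.85 ± 2.36, Nkx2-4 at 5.76 ± 2.90, Six3 at 5.71 ± 0.242, Sim1 at 1.75 ± 0.481 and Fezf1 at 1.19 ± 0.885 RPKM. The first 4 overlapped between libraries, as did Sim1 and Fezf1. Within every one of these libraries, though, Nkx2-1 exceeded both Otp and Nkx2-4. Rax, Nr5a1 and Six6 came last at means of 0.0436, 0.00795 and 0.00646 RPKM. In E17.5 wild type libraries the order was Otp, Six3 at 14.3 ± 6.55, Nkx2-1 at 14.3 ± 5.03, Fezf1 at 8.33 ± 3.75, Nkx2-4 at 5.92 ± 2.22, Six6 at 2.91 ± 0.597, Sim1 at 2.81 ± 1.15, Nr5a1 at 0.326 ± 0.156 and Rax at 0.197 ± 0.0447 RPKM. Each gene overlapped its neighbour in that order between libraries, except Nkx2-4 against Six6 and Sim1 against Nr5a1. Within every one of these libraries, though, Otp exceeded Six3, Nkx2-1 exceeded Fezf1 and Fezf1 exceeded Nkx2-4. The RPKM values rest on counts without strand, which held 89 Rax reads over all libraries, against 207 on the Rax strand. Nr5a1 had 360 and 356, so the late order of Rax and Nr5a1 depends on which count is used. In E17.5 humanized libraries Otp was again first at 15.9 ± 2.46 RPKM, and Nkx2-1 and Six3 followed at 13.1 ± 1.28 and 11.8 ± 0.169 RPKM.

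No factor differed between genotypes by the edgeR test. At E11.5, 6 factors were tested and the lowest adjusted p was 0.584, and at E17.5, 8 were tested and the lowest was 0.808. At E11.5 the test called 0.0% of 17816 genes, likewise 0.0% of 18763 for E17.5, where 1058 and 207 genes had an unadjusted p under 0.05 and DESeq2 called 2 genes and 1 gene, none of them a factor. At E11.5 the intervals were widest for the factors that varied most between libraries. Humanized against wild type, Nkx2-1 differed by -0.46 on the log2 scale (95% interval -1.45 to 0.54) and Nkx2-4 by -0.39 (-1.37 to 0.59), Otp by -0.44 (-1.17 to 0.28), Sim1 by -0.42 (-1.17 to 0.33) and Fezf1 by 0.54 (-0.86 to 1.94). Six3 differed by -0.01 (-0.30 to 0.27), the narrowest interval of the group. At E17.5 the differences ran from -0.38 for Nkx2-4 (-0.96 to 0.19) to 0.34 for Sim1 (-0.52 to 1.20), and without wild type replicate 1 they ran from -0.09 to 0.19. The genotype effect was not shown to differ between stages for any factor, with a lowest adjusted p of 0.494 for Sim1 in the interaction test, which called 0.0% of 20234 genes (1610 at an unadjusted p under 0.05).

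The E11.5 libraries differed in several of these factors beyond most other genes. Nkx2-1 had a coefficient of variation of 49.1% in wild type and 61.6% in humanized E11.5 libraries, above 99.7% and 99.9% of the coding genes at 5 to 100 CPM, whose medians were 13.8% and 13.1%. Nkx2-4 varied as much, by 50.3% and 56.9%, and Otp by 40.4% and 42.3%. Sim1 varied by 27.6% and 48.5%. Six3 did not, at 4.24% and 15.7%. At E17.5 the wild type libraries, replicate 1 included, varied by 45.8% for Six3, 45.1% for Fezf1 and 35.2% for Nkx2-1, where the median of coding genes was 31.3%. The humanized libraries were even for Six3 (1.43%), Fezf1 (4.88%) and Nkx2-1 (9.83%), while Sim1 varied by 39.1%, above 98.8% of coding genes, with a median of 12.9%.

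**Figure D3:**
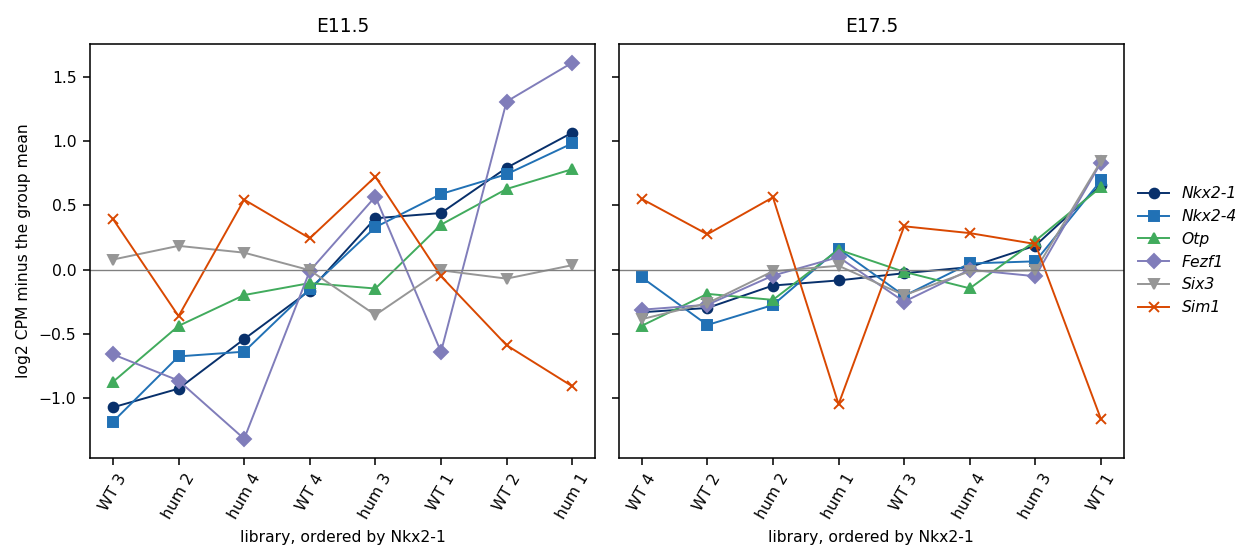
Log2 CPM of 6 factors in each library after subtracting the mean of its stage and genotype group, with the libraries of both genotypes (WT, hum, with the replicate number) ordered by Nkx2-1. At E11.5 Nkx2-4, Otp and Nkx2-1 climb together, Six3 stays near 0 and Sim1 is lowest in humanized replicate 1. At E17.5 wild type replicate 1 is highest for 5 factors and lowest for Sim1.

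The libraries that were high in Nkx2-1 were high in Nkx2-4 and Otp too. After subtracting group means, the correlation of Nkx2-1 over the 8 E11.5 libraries was 0.99 with Nkx2-4, 0.93 with Otp, 0.83 with Fezf1, -0.49 with Sim1 and -0.53 with Six3. Over the 8 E17.5 libraries it was 0.86, 0.92 and 0.90 with Nkx2-4, Otp and Fezf1, 0.93 with Six3 and -0.64 with Sim1. Without wild type replicate 1, over the other 7 late libraries, they were 0.25, 0.70, -0.07, 0.51 and 0.10. These are descriptions over libraries that share depth, dissection and base composition. The libraries also differed in the GC content of the genes they read well. The median residual of low-GC genes minus that of high-GC genes ran from -0.55 to 0.561 on the log2 scale at E11.5, and at E17.5 from -0.282 to 0.585 in 7 libraries with -1.63 in wild type replicate 1. The transcripts of Nkx2-4 (64.8% GC), Otp (58.2%) and Nkx2-1 (56.9%) are rich in GC, and that of Sim1 (39.8%) is poor, at the 5.1 percentile of coding genes. Over the 16 libraries the correlation with the GC measure was 0.80 for Sim1, -0.66 for Nkx2-4, -0.60 for Nkx2-1, -0.71 for Otp, -0.74 for Six3 and -0.62 for Fezf1. Without E17.5 wild type replicate 1 it was 0.75, -0.74, -0.65, -0.74, 0.18 and -0.70 in the same order.

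The median residual of genes of similar GC content was then subtracted in each library. The E11.5 correlations of Nkx2-1 with Nkx2-4, Otp and Fezf1 were close to those before, and the E17.5 ones were not. At E11.5 the correlation of Nkx2-1 with Nkx2-4 stayed at 0.99, with Otp at 0.91 and with Fezf1 at 0.79. That with Sim1 moved from -0.49 to -0.14, and that with Six3 from -0.53 to -0.68. At E17.5 the correlation of Nkx2-1 went to -0.07 with Nkx2-4, 0.48 with Otp, -0.32 with Fezf1, 0.05 with Six3 and 0.78 with Sim1. Markers of another region also varied at E11.5. The summed CPM of 5 midbrain and hindbrain genes, of which En1 and En2 held nearly all reads and Hoxa2 and Hoxb2 were at or near 0, was 3.538, 2.228, 7.738 and 13.3 in wild type replicates 1 to 4 and 0.9247, 15.96, 14.9 and 13.98 in humanized ones. It was lowest in the 3 libraries where Nkx2-1 stood at 43.61, 50.34 and 39.43 CPM. Its part in the Nkx2-1 differences was not tested. The telencephalic sum varied less, from 10.71 to 16.25 CPM over the same 8 libraries.

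Genes whose residuals were most like each factor were ranked over the 16 libraries among 12486 coding genes. For Nkx2-1 they were Fezf2 (r = 0.95), Olig2 (0.94) and Gpr50 (0.92), and these stood at 0.91, 0.94 and 0.87 after the GC subtraction. For Nkx2-4 they were Fezf2, Olig2 and Dusp6 (0.95, 0.94 and 0.93, and 0.91, 0.91 and 0.80 after the subtraction). Otp was nearest to Psen2 (0.93), Olig2 and Dlk1 (0.91 each), which stood at 0.79, 0.84 and 0.79 after it. Fezf1 was nearest to Olig1 (0.94), Gpr50 (0.91) and Adamts15 (0.90), then at 0.92, 0.91 and 0.87. Six3 was nearest to Basp1 (0.95), Pitpnm1 and Rsph3a (0.94 each), which stood at 0.86, 0.86 and 0.85 after the subtraction and at 0.67, 0.67 and 0.62 without E17.5 wild type replicate 1. Sim1 was nearest to Zfp638, Smc4 and Smc2 (0.99 each), which stood at 0.95, 0.96 and 0.95 after the GC subtraction. Likeness was weaker for Six6 and Nr5a1, with D830030K20Rik (0.82), Atpsckmt (0.73) and Dnah2 (0.69) for Six6 and Slc13a3 (0.80), Ankrd39 (0.80) and Cntnap4 (0.79) for Nr5a1. After the subtraction these stood at 0.81, 0.75 and 0.21 for Six6 and at 0.76, 0.57 and 0.71 for Nr5a1, and over the E17.5 libraries alone D830030K20Rik and Atpsckmt stood at 0.19 and -0.35 with Six6. These 3 genes per factor were the highest of 12486 ranked, and the values describe these libraries only.

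Other regulators of the hypothalamus did not share one direction. Of a list of 30, 28 were tested by stage, and 10 rose and 13 fell in wild type while 10 rose and 15 fell in humanized diencephalon, with median log2 changes of -0.52 and -0.87. Vax1, Hmx2 and Hmx3 had too few E11.5 reads to be tested at that stage and passed the filter only through E17.5, so they had to differ. Without them 7 of 25 rose and 13 fell in wild type, and 7 rose and 15 fell in humanized diencephalon, with medians of -1.04 and -1.02. These were also the 3 with the largest fitted rises in wild type, values that depend on the prior count, namely Vax1 (8.33 on the log2 scale, from 1 read in the 4 E11.5 libraries to 467 at E17.5, adjusted p = 3.64e-06), Hmx2 (5.83, from 6 reads to 361, adjusted p = 6.04e-06) and Hmx3 (5.38, from 6 reads to 265, adjusted p = 0.000142, edgeR), homeobox genes of the ventral forebrain and hypothalamus. The 3 with the largest falls were Sim2, the paralogue of Sim1, which went from 29.7 to 1.51 CPM (log2 change -4.31, adjusted p = 8.21e-07), Nkx6-2 (from 5.06 to 0.341 CPM, -3.87, adjusted p = 2.83e-05) and Barhl1 (from 33.6 to 5.49 CPM, -2.62, adjusted p = 5.94e-05, edgeR). A gene that passes the filter only through E11.5 also has to differ, and none was left out of the counts above for this. Of the 28 genes, 27 were tested for genotype at E17.5. Nkx6-2 had the fewest E17.5 reads of the 28, with 28 in wild type and 19 in humanized libraries, so its fall may have been set by the filter. None of the list genes (25 tested in the early stage, 27 in the late one) differed between genotypes.

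All 9 promoters were under H3K27me3 at both stages. A peak of this Polycomb mark lay within 1 kb of a transcript start of every factor in each of the 2 E11.5 and 3 E17.5 wild type lists, where 21.1% and 21.2% of 21467 coding genes had one in every list. The fold enrichment over local background at E11.5 was 12.7 for Rax and 21.0 for Six3 as means of 2 lists, the lowest and highest of the 9. These values lay between the 85.6 and 96.9 percentiles of the marked promoters, whose median was 5.42. The E17.5 means ran from 10.1 for Nr5a1 to 15.01 for Sim1, with a median of 5.07 over marked promoters. The mark also spread past the start. Within 20 kb of the gene's 5′ end it covered 98.7% and 96.1% of the window at Otp at E11.5 and the whole window in 2 lists and 98.0% in the other at E17.5. The narrowest cover at E11.5 was that of Nkx2-4, at 37.4% and 32.3%. At E17.5 Nkx2-4 (53.5%, 47.9% and 45.5%) and Nr5a1 (53.4%, 46.0% and 49.0%) were the narrowest. These values were still at or above the 96.5 percentile of coding genes in each list.

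H3K4me3 and H3K27ac, marks of active promoters, were found on top of H3K27me3 and on more of the factors at E17.5. An H3K4me3 peak was present in every wild type list at 6 promoters in E11.5 lists (65.4% of coding genes) and 9 in E17.5 lists (65.5%), and an H3K27ac peak at 5 (49.5%) and at 8 (59.2%). The study's methods state that the lot of H3K27ac antibody also bound acetylated lysine 5 of histone H2B, though the catalogue number of this antibody differs between the labels and those methods. H3K27me3 was in all lists of both stages at 9 factors (17.1% of coding genes), H3K4me3 at 6 (64.5%) and H3K27ac at 5 (48.5%). No factor had a mark in every E11.5 list and no E17.5 list, the pattern of 0.391% of coding genes for H3K4me3, 0.592% for H3K27ac and 1.63% for H3K27me3, and none gained H3K27me3 from no E11.5 list to every E17.5 list (2.71%). Promoters with both H3K4me3 and H3K27me3 numbered 6 (19.4%) early and 9 (18.4%) late, and those with all 3 marks numbered 5 (8.17%) and 8 (12.2%). None of the 9 had H3K4me3 and H3K27ac without H3K27me3, the state of 38.7% and 41.1% of coding genes. Marks found in the same bulk list need not lie on the same cells. With 2 against 3 lists an exact test cannot go below p = 0.1, so presence is given per list.

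**Figure D4:**
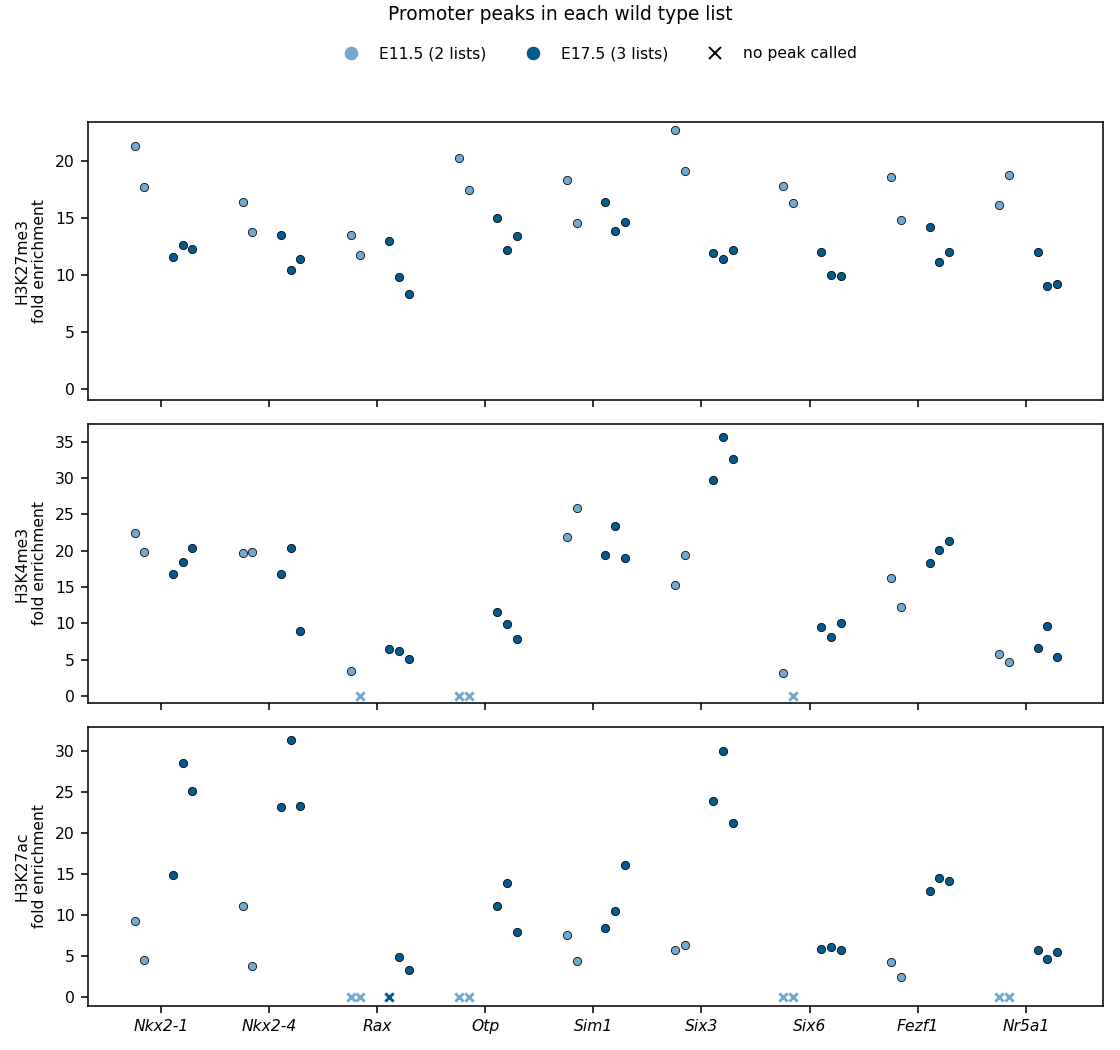
Fold enrichment over local background of the highest peak within 1 kb of a transcript start of each factor, in the 2 E11.5 and 3 E17.5 wild type lists of H3K27me3, H3K4me3 and H3K27ac. Circles are single lists and crosses mark lists with no peak. H3K27me3 is present in every list, and Otp, Six6 and Nr5a1 have crosses for H3K27ac at E11.5 and circles at E17.5.

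Acetylation at E11.5 was found at promoters of factors that were read in RNA, though not at Otp. Nkx2-1, Nkx2-4, Sim1, Six3 and Fezf1 had H3K27ac in both E11.5 lists, and Six6, Nr5a1 and Rax, with 2, 5 and 9 reads in E11.5 wild type, had none. Otp had a mean of 15.5 ± 6.28 CPM (SD, n = 4) in E11.5 wild type but no H3K27ac or H3K4me3 promoter peak in either list. Both E11.5 lists did hold an H3K4me3 region within the Otp gene, at chr13:95019454-95020444. It was centred 7840 bp downstream of the start, with fold enrichments of 7.07 to 7.12. H3K27ac was in no E11.5 list and in every E17.5 list at Otp (fold enrichment 11.14, 13.9 and 8.03), Six6 (5.95, 6.1 and 5.81) and Nr5a1 (5.83, 4.63 and 5.59), a pattern of 7.61% of coding genes. For H3K4me3 the same pattern held at Otp only (11.62, 9.9 and 7.89), and at 0.643% of coding genes. The 250 bases upstream of Otp, printed above, hold 20 CpG dinucleotides and are 69.2% GC, at the 94.4 percentile of coding promoters. H3K4me3 at Six6 was 3.16 in 1 E11.5 list, absent from the other, and 9.49, 8.07 and 10.08 at E17.5. Rax had 3.41 in 1 E11.5 list and 6.43, 6.12 and 5.04 at E17.5, and its H3K27ac was called in 2 of 3 E17.5 lists (4.88 and 3.3).

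At factors marked at both stages H3K27ac was stronger in the later lists. Six3 had 5.72 and 6.39 in the E11.5 lists, then 23.89, 30 and 21.24 in those of E17.5, Nkx2-4 had 11.14 and 3.82 and then 23.21, 31.44 and 23.36, and Nkx2-1 had 9.37 and 4.57 and then 14.93, 28.53 and 25.2. Fezf1 had 4.33 and 2.46 and then 12.95, 14.57 and 14.24, and Sim1 had 7.58 and 4.39 and then 8.45, 10.49 and 16.2. Every E17.5 list lay above every E11.5 list at all 5, as it did at 78.3% of the 10405 coding promoters marked in all lists. H3K27me3 lay lower in every E17.5 list than in every E11.5 list at 7 of the 9 factors, all but Rax and Sim1, and at 45.4% of 3672 promoters. At Six3 it went from 22.78 and 19.19 to 11.92, 11.39 and 12.19, and at Nkx2-1 from 21.38 and 17.79 to 11.59, 12.62 and 12.31. H3K4me3 lay higher in every E17.5 list at Six3 (15.32 and 19.41, then 29.75, 35.68 and 32.63) and Fezf1 (16.3 and 12.26, then 18.29, 20.05 and 21.35), 2 of 6 factors marked in all lists, against 34.7% of 13851 promoters. H3K4me3 at these promoters was weak, between the 1.46 and 16.7 percentiles of marked promoters over both stages. Fold enrichment depends on the depth and background of each list, which could not be measured from the peak lists.

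The pair of E11.5 wild type H3K27ac lists also differed at the promoters of Nkx2-1 and Nkx2-4. The first wild type H3K27ac list exceeded the second 2.92-fold at Nkx2-4, 2.05-fold at Nkx2-1, 1.76-fold at Fezf1, 1.73-fold at Sim1 and 0.895-fold at Six3, against a median of 1.02 over 10619 promoters. The first 4 ratios lay at the 99.83, 98.26, 95.03 and 94.43 percentiles. Replicate numbers of RNA and ChIP samples are not stated to be the same litters, so the ratios cannot be joined to the RNA of single libraries.

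The humanized lists, read without Otp, gave like numbers for the other 8 factors. H3K27me3 was in every humanized list at 8 promoters at both stages (23.3% and 19.8% of coding genes), H3K4me3 at 7 early (65.7%) and 8 late (65.4%), and H3K27ac at 5 (50.5%) and 6 (56.2%). Against wild type, Rax had H3K4me3 in both E11.5 lists, and Nr5a1 lacked H3K27ac in 1 E17.5 list. At E11.5 H3K27ac at Nkx2-1 was 11.14 and 10.67 in humanized lists and 9.37 and 4.57 in wild type lists, and at Nkx2-4 it was 16.37 and 10.37 against 11.14 and 3.82. Replicate 2 of wild type held the lowest of the 4 values at both.

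Promoter windows of the factors had little in common in the short motifs searched. TATAAA, found in the 250 bases before the start at 12.5% of coding promoters, was present at Sim1 and Fezf1, and CAAGTG, an NKX2-type site, found in 13.1%, was present at Fezf1. AAGGTCA (4.33% of promoters), TAATTA (5.6%) and CACGTG (5.76%) were found in none of the 9, each searched on both strands. A missing match says only that these letters are not in the window. GC content ran from 40.0% at Fezf1 to 69.2% at Otp.

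Distal regions were those called in every wild type list of a mark and stage, more than 1 kb from any transcript start, and assigned to the nearest coding start within 100 kb. Distal H3K27ac regions assigned to the factors numbered 2 at E11.5 (0.017% of 11739) and 12 at E17.5 (0.0391% of 30709). These counts were unstable. Without wild type replicate 1 the E11.5 count was 7 and without replicate 2 it was 13, coding starts alone gave 5, and at E17.5 lists of equal peak number gave 3 and peaks with −log10 q of at least 5 gave 5. The E11.5 regions were 1 at Sim1, centred 6108 bp downstream of a start with a fold enrichment of 8.4 (range 7.35 to 9.45), and 1 at Nr5a1, 22603 bp downstream with 5.13 (4.9 to 5.37). Of 36 distal H3K27ac regions at the factors in any wild type list, 11 (30.6%) were in every E17.5 list and no E11.5 list, a class of 27.1% of all 78641 regions, and 0 were in every E11.5 list and no E17.5 list (4.0%). When lists were trimmed to an equal 32413 peaks, 2 of 11 regions were of the E17.5 class, both at Otp, where that class held 19.1% of all regions.

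**Figure D5:**
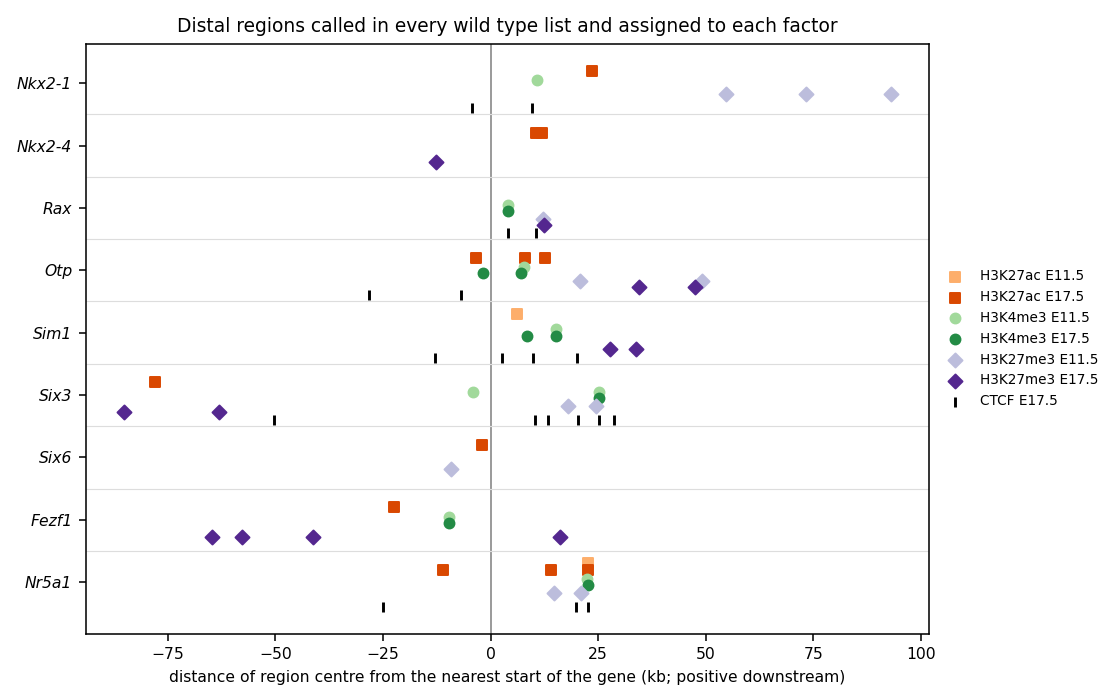
Distance in kb of each distal region from the nearest transcript start of its factor, positive downstream in the direction of transcription. Symbols are regions called in every wild type list of H3K27ac, H3K4me3 and H3K27me3 at E11.5 (pale) and E17.5 (dark) and of CTCF at E17.5 (bars). E17.5 H3K27ac squares outnumber E11.5 ones 12 to 2, and Six3 has 6 CTCF bars.

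Among the late distal regions, the longest and strongest lay at Otp. One region upstream spanned chr13:95006570-95010990 with a mean fold enrichment of 12.1 (range 10.29 to 13.25), and contains the Otp distal sequence printed above. Another covered chr13:95016132-95023923 over the downstream part of the gene and beyond, with 13.2 (10.04 to 16.09), and the last lay at chr13:95024410-95025037 with 3.68. All 3 also lay under H3K27me3 in both E11.5 and all 3 E17.5 lists. At Nkx2-1 the late region chr12:56558117-56559068 was centred 23462 bp downstream with 4.61 (range 4.03 to 5.75), and at Six3 the region chr17:85842256-85842923 lay 78051 bp upstream with 4.18. At Six6 the region chr12:72984166-72985035 lay 2066 bp upstream with 4.08.

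The Nkx2-1, Six3 and Six6 regions were called in all 3 humanized E17.5 lists and in no humanized E11.5 list. The other 5 late regions that could be compared, 2 at Nkx2-4, 2 at Nr5a1 and 1 at Fezf1, were called in 1 or 2 of the 3 humanized E17.5 lists and in no E11.5 list. Otp lies downstream of hs754 on chromosome 13, where the coordinates of the humanized genome are shifted, and was left out of the humanized lists. The Nr5a1 region at chr2:38578217-38579853, downstream of the gene, was the only one acetylated in every list of both stages, and it carried H3K4me3 and CTCF in every wild type list.

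Distal H3K4me3 regions numbered 8 at E11.5 (0.14% of 5711) and 8 at E17.5 (0.143% of 5603), and 3 and 4 of them overlapped a CTCF region (35.3% and 39.2% of all distal H3K4me3 regions). These were at Six3, Rax and Nr5a1 at both stages and at Sim1 at E17.5. The strongest lay at Six3, 25147 bp downstream, at 24.4 (range 22.79 to 25.98) at E17.5 against 9.94 at E11.5, and at Rax, 3928 bp downstream within the gene, at 17.9 at E17.5. Distal H3K27me3 regions numbered 11 at E11.5 (0.216% of 5086) and 12 at E17.5 (0.125% of 9565), of which the longest, 34638 bp, lay downstream of Nkx2-1 at chr12:56491507-56526144 at E11.5.

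CTCF, the protein that anchors chromatin loops, was called at 1 promoter in every wild type list, that of Fezf1 (fold enrichment 13.67, 11.42 and 18.54), where 37.5% of coding promoters had it. The Sim1 promoter had it in 2 of 3 wild type lists and in all 3 humanized ones, so that 2 promoters had it in every humanized list (33.2%). Distal CTCF regions numbered 19 (0.047% of 40459), with 6 at Six3, 4 at Sim1, 3 at Nr5a1 and 2 each at Nkx2-1, Otp and Rax, and none at Nkx2-4, Six6 and Fezf1. The highest were 25045 bp upstream of Nr5a1 (46.1, range 38.43 to 51.33), 4371 bp upstream of Nkx2-1 (40.7), 25202 bp downstream of Six3 (37.2), 4075 bp downstream of the Rax start (30.2) and 6793 bp upstream of Otp (28.9). The 12-base core of the CTCF motif, chosen after the regions had been seen, was found in the central 300 bases of 5 of the 19, against 33.4% of all distal CTCF regions and 1.78% of distal H3K27ac regions. The Nr5a1 CTCF sequence printed above is 1 of these 5.

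Regions of the factors that were called in 1 genotype alone were found in 2 of the 7 sets of lists. Of 39 H3K27ac regions at E11.5 outside chromosome 13, 5 were in both humanized lists and in no wild type list, where 2.76% of all regions were, and 0 were in both wild type lists alone (1.65%). They were 2 at Nkx2-1 (chr12:56570818-56571402 and chr12:56584192-56584537) and 3 at Fezf1 (chr6:23247435-23248242, chr6:23249517-23249943 and chr6:23253543-23254270), with fold enrichments of 3.32 to 6.01. Of these, chr12:56584192-56584537, chr6:23247435-23248242 and chr6:23249517-23249943 lay within 1 kb of a transcript start. Both wild type E11.5 lists held other H3K27ac peaks at the promoters of Nkx2-1 and Fezf1. A single H3K27me3 region at E17.5, at Six3 (chr17:85856882-85858175, 2.53 to 2.97), of 42 was called in every wild type list alone (1.14%). No region of the factors was called in 1 genotype alone for H3K4me3 at either stage, for H3K27ac at E17.5, for H3K27me3 at E11.5 or for CTCF. In RNA neither Nkx2-1 nor Fezf1 differed between genotypes at E11.5, as given above.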

How the data were processed

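Diencephalon of wild type and hs754-humanized embryos was profiled by polyA RNA-seq (16 libraries) and ChIP-seq (36 peak lists), and 24 input samples were not used here. The authors aligned RNA reads to mm39 with STAR 2.7.9a and the basic annotation of GENCODE release 31 and deposited raw counts of reads per gene, without strand and by strand. The unstranded counts were the main data here. Lines that name no gene (48.1% to 58.4% of reads) were left out. For ChIP-seq the authors used Bowtie2 2.4.2 and mm39 (for humanized samples, a version carrying the human insert), discarded duplicates and multi-mapping reads, and ran MACS2 2.2.7.1 on every replicate separately. The deposited lists give each peak's fold enrichment ratio over local background, its signal as −log10 p-value and −log10 q-value, and a whole-number score. How the H3K27me3 peaks were called is not given in the sources used here. The lists hold no read depth, and peak values carry no interval.

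Counts were filtered with filterByExpr, normalized by TMM and tested over all genes with the quasi-likelihood method of edgeR 4.0.16 (R 4.3.3 with limma 3.58.1), by stage in each genotype on 8 libraries, by genotype at each stage on 8 libraries, and for their interaction on 16. A call needed an adjusted p (Benjamini-Hochberg, all genes tested) under 0.05. Alternatives were DESeq2 1.42.0, the study's own tool, DESeq2's size factors, no filter, the strand column, 1 fit of 16 libraries, the replicate number as a block, and each replicate left out. Offsets for transcript GC content in 20 bins, equal peak numbers per list at promoters, and coding starts alone for distal regions were chosen after seeing the data. Positions and transcript starts came from GENCODE vM39, in which 56236 of 56923 gene IDs matched (98.8%), and sequences from the mm39 genome. Peaks were compared with Python 3.11.15, pandas 2.3.3 and numpy 2.4.6, with at least 1 bp of overlap. Alternatives for peaks were windows of 500 bp and 2 kb, the 5′ end of the gene alone, peaks with −log10 q of at least 5, 50 kb in place of 100 kb, equal peak numbers per list, humanized lists and each replicate left out. The exact tests used SciPy 1.17.1, and figures matplotlib 3.10.9. Counting intervals are at 95%. The tests were checked on simulated data.

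Values without E17.5 wild type replicate 1 for correlations, and list counts over genes that also passed the filter at E11.5, were added after seeing the data. The factors and gene lists were chosen with earlier results of these data known. Named genes were the 9 factors, 3 rises and 3 falls of the other regulators, and the 3 genes most like each factor. The CTCF letters were chosen after seeing the regions. Each replicate came from a single litter, and replicate numbers are not stated to pair samples between groups or assays. Samples were therefore not treated as paired.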

Additional observations from a re-analysis of the deposited data

Results flagged for a closer look

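In 3 of 36 sets of 4 libraries (a factor in a group), 1 library lay far from the other 3, with a gap to the nearest of them above Dixon's 95% critical value as a share of the whole range. Chance gives about 1 in 20 such sets. Otp stood at 18.93 CPM in E11.5 humanized replicate 1 and at 8.117 to 9.934 CPM in the other 3 libraries of the group (gap over range 0.832). Six3 stood at 134.4 CPM in E17.5 wild type replicate 1 and at 57.28 to 65.18 CPM in the others (0.898). Fezf1 stood at 34.81 CPM in the same library and at 15.72 to 16.42 CPM in the others (0.963). That library also had the lowest GC measure (-1.63) and the highest blood marker sum of its group (838.9 CPM, against a group median of 316.5), and their part in the values was not tested.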

How the results depend on the processing

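Apart from the fits that left out a replicate, 237 single-factor values kept their direction and their side of the threshold. A further 125 counts were rated as the same, which allowed for some shift in number. The values and counts that changed follow. For none of them was the cause tested. Offsets for GC content gave a log2 stage difference of 0 for Nkx2-4 in wild type and, for the genotype difference at E17.5, 0.2 for Nkx2-1, 0.25 for Otp, 0.04 for Six3, 0.09 for Fezf1 and 0.02 for Nr5a1, all with the sign turned. The difference between genotypes in the stage change turned sign with these offsets for Nkx2-4 (0.51), Six3 (0.18), Six6 (-0.02) and Nr5a1 (0.25), and for Nkx2-4 also with DESeq2 (0), with DESeq2 size factors (0.01) and with the replicate number as a block (0.11). Without the filter, the stage difference of Nkx2-4 in humanized libraries was -0.04, and with all 16 libraries in 1 fit the genotype difference of Six3 at E11.5 was 0.01. The calls that changed were those of Nkx2-1 and Sim1. Nkx2-1 passed the threshold for stage in wild type with GC offsets (0.65, adjusted p = 0.0427) and in humanized libraries with DESeq2 size factors (0.78, adjusted p = 0.0458), without the filter (0.65, adjusted p = 0.00369), with the replicate block (0.9, adjusted p = 0.0107) and with GC offsets (1.41, adjusted p = 0.000987), and Sim1 in humanized libraries lost its call with GC offsets (0.36, adjusted p = 0.206). The replicate block ended no call of a factor. Same-numbered libraries of the genotypes correlated at 0.02 to 0.07 in E11.5 groups and 0.03 to 0.41 in E17.5 groups, so the numbers were not read as pairs.

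For genotype, DESeq2 called 1 gene higher and 1 lower at E11.5 and 1 higher at E17.5, and the fit of all 16 libraries called 1 higher at E11.5, where the separate fits called 0. At promoters, the 5′ end of the gene alone left 3 factors with H3K27ac at E11.5 in place of 5, and CTCF was at 0 factors in a window of 500 bp and at 2 in humanized lists in place of 1. Distal H3K27ac regions numbered 5 in place of 2 at E11.5 from coding starts alone, and at E17.5 numbered 5 with −log10 q of at least 5 and 3 with equal peak numbers per list, in place of 12. Distal H3K27me3 regions with −log10 q of at least 5 numbered 2 at E11.5 in place of 11 and 2 at E17.5 in place of 12, where equal peak numbers gave 5.

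With each replicate left out in turn, log2 stage differences of Nkx2-4 ran from -0.27 to 0.29 in wild type and -0.21 to 0.42 in humanized libraries, and those of Nkx2-1 in humanized libraries from 0.44 to 1.14, the latter without replicate 1 of E11.5 humanized (adjusted p = 0.00114). Sim1 in wild type ran from 0.5 to 0.93 and was called without replicate 1 of E17.5 wild type (adjusted p = 0.000969). Genotype differences at E11.5 ran from -0.07 to 0.08 for Six3 and -0.22 to 1.17 for Fezf1, and at E17.5 from -0.23 to 0.14 for Nkx2-1, -0.2 to 0.19 for Otp, -0.4 to 0.09 for Six3, -0.29 to 0.18 for Fezf1 and -0.51 to 0.04 for Nr5a1. The difference of stage changes ran from 0 to 0.75 for Nkx2-1, -0.27 to 0.41 for Nkx2-4, -0.43 to 0.09 for Six3, -0.17 to 0.78 for Six6, -1.4 to 0.02 for Fezf1 and -1.88 to 1.31 for Nr5a1. Distal regions numbered 12 to 13 for H3K4me3 at E11.5 in place of 8, 7 to 13 for H3K27ac at E11.5 in place of 2 and 16 to 20 for H3K27me3 at E17.5 in place of 12, where fewer lists have to hold a peak. Counts rated as the same moved too, to 13 to 18 for H3K27ac at E17.5 in place of 12 and to 16 for H3K27me3 at E11.5 in place of 11. Distal H3K4me3 regions at E17.5 numbered 9 to 12 in place of 8. Promoters with CTCF numbered 1 to 2 and those with H3K4me3 at E11.5 6 to 8. Genes called by stage in wild type numbered 4935 to 6968 higher and 4152 to 7026 lower. Depth limits Six6 and Nr5a1, whose few E11.5 reads gave no test of genotype at that stage and a wide interval for the difference of stage changes.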
